A study of Homo sapiens with 10 samples.

Results

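The DNA replication machinery and the genes switched on by E2F factors at the G1/S border were followed as a set of 52 genes, taken by exact gene symbol from the 34567 genes of the deposited table. All 52 were found, and all 52 passed the filter on low counts in each fit. The rule used the symbols alone and no measured value. The set was split into 8 groups by role: licensing of origins (11 genes), helicase activation (6), polymerases and primase (8), the clamp with its loader and RPA (10), lagging strand maturation (2), nucleotide synthesis (4), copying of chromatin and methylation (5), and G1/S control (6). Bulk mRNA was sequenced in 10 libraries of 2 human glioblastoma lines. SNB19 cells had received Scramble siRNA (3 libraries, control) or MEOX2 siRNA (3 libraries), and U87 cells carried lentivirus with an empty vector (EV, 2 libraries) or with MEOX2 (overexpression, OE, 2 libraries). The paper describes 2 MEOX2 siRNAs, and the library titles do not say which was used. MEOX2 encodes a homeobox transcription factor, and the study asked which genes move when its level is lowered in one line and raised in the other. The siRNA was transient, while the U87 cells were a stable selected line. Both U87 groups therefore carry a lentivirus and both SNB19 groups a transfected siRNA, so that the cell line and the kind of control treatment cannot be told apart. Nothing states that libraries of a group came from separate cultures, and the p-values then measure only the spread between these libraries.

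In G1, the origin recognition complex (ORC), CDC6 and CDT1 load the MCM2-7 ring onto origins, a step called licensing. At the start of S phase, CDC45 and the GINS complex turn the ring into an active helicase, primase and the DNA polymerases copy both strands, RPA coats single-stranded DNA, and the PCNA clamp, loaded by RFC, holds the polymerases on the template. Most of these genes are targets of the E2F factors, which are released from pocket proteins when these are phosphorylated by G1 cyclin-dependent kinases, and their mRNAs are therefore used as a readout of S phase entry in dividing tumour cells.

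The libraries held 12533775 to 16560324 counts. MEOX2 was counted 249, 224 and 275 times in the SNB19 controls and 54, 40 and 49 times after siRNA, a log2 fold change of -2.41 ± 0.14 (SE, adjusted p = 1.35e-11). It had 0 counts in both U87 EV libraries and 4999 and 5308 in the OE libraries, at least 1700-fold above the level of 3 counts per library, the floor that a count of 0 allows. The treatment labels of the U87 libraries number the homeobox gene upwards from one library to the next, but their titles all name MEOX2, and these counts go with the titles. U87 EV 1 stood apart. Ribosomal protein genes took 13% of its counts against 4.04 to 6.68% in the other libraries, and its correlation with EV 2 across genes was 0.906 against 0.994 to 0.996 in the other replicate pairs (Pearson's r of log2 CPM). Relative to EV 2 its levels were lower in long genes, with a Spearman's rho with gene length of -0.452 across 14180 genes and -0.425 across the 52 members. Of 11 glial and glioma markers, 7 to 9 were above 1 FPKM in every library of a group, and their summed level was 482.6 to 493.1 FPKM in SNB19 controls, 219.6 to 221.4 after siRNA, 666.2 to 855.1 in EV and 464.8 to 495.9 in OE. S100B was at 0 in all U87 libraries. GFAP, the defining astrocyte marker, lay between 0.0894 and 0.397 FPKM. Markers of other cell types summed to between 2.136 and 12.28 FPKM. FPKM are the authors' counts set to gene length and library total.

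Several members have the classical E2F element in the 250 bases before their start. The windows of 7 members are given, each picked for holding an E2F word. MCM6 was taken for its number of words. The other 6 members had the smallest p-value of their role in either line and a word before the start. The windows are RefSeq promoters of GRCh38.p14, 5' to 3' on the gene's strand, with E2F words in capitals. CDT1 lies at chr16:88803719-88803788 on the plus strand, MCM6 at chr2:135876514-135876603 on the minus strand, POLE at chr12:132687343-132687412 on the minus strand, RFC3 at chr13:33818064-33818133 on the plus strand, LIG1 at chr19:48170419-48170488 on the minus strand, UHRF1 at chr19:4909431-4909500 on the plus strand, and E2F2 at chr1:23531236-23531305 on the minus strand.
CDT1: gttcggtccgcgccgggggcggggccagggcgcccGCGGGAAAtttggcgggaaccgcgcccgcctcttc
MCM6: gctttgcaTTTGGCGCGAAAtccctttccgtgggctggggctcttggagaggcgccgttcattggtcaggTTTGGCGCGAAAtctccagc
POLE: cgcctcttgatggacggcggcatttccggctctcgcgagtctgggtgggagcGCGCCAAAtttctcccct
RFC3: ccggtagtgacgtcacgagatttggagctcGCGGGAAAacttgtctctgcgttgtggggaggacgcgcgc
LIG1: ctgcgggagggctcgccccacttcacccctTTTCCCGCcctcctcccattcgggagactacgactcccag
UHRF1: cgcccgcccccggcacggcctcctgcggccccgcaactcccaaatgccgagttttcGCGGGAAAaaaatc
E2F2: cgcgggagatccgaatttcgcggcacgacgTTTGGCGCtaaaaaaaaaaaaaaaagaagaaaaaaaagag
The words searched were TTTCCCGC, TTTGGCGC, TTTCGCGC and TTTGCCGC on both strands. MCM6 held 4 words, the most of any member, in overlapping pairs. In the other 6 windows the word began between base -114 (LIG1) and base -14 (UHRF1) from the start.

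In the 300 bases from 250 before to 50 after the start, 22 of the 43 members with a promoter entry held at least 1 E2F word (51.2%), against 908 of all 27305 promoters of the same length (3.33%). The CCAAT box, searched as CCAAT on both strands, was present in 23 of 43 members (53.5%) and in 35.7% of all promoters. The cell cycle homology words of G2/M genes, TTTGAA and TTCGAA on both strands, were present in 2 members (4.65%) and in 16.6% of all promoters. The homeobox core TAATTA was found in 0 of 43 member promoters and in 4.98% of all promoters, which says only that these letters are not in these windows. E2F words were about equally frequent among members that moved in different ways. Of the members higher after MEOX2 siRNA, 9 of 18 with an entry held a word, against 4 of 7 that were lower and 9 of 18 that were not called. The 9 members without an entry were CCNE2, MCM4, RPA2, RPA3, GINS4, E2F8, DSCC1, MCM5 and POLD3.

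Levels spanned about the same range in both lines. The median over the members, taken within each library, was 13.16 to 14.78 FPKM in SNB19 controls, 16.36 to 17.73 FPKM after siRNA, 10.79 and 13.9 FPKM in EV and 7.393 and 7.563 FPKM in OE. By group mean, 35, 37, 31 and 20 members were above 10 FPKM in these groups. Together the members took 0.468, 0.478 and 0.468% of all counts in the SNB19 controls and 0.551, 0.532 and 0.535% after siRNA, with no overlap. They took 0.415 and 0.489% in EV and 0.26 and 0.259% in OE, again without overlap. PCNA, the sliding clamp, was the most abundant member in SNB19 controls at 149 ± 0.75 FPKM (SD, n = 3), followed by MCM7, TK1, FEN1 and MCM3. In the U87 EV libraries TK1, MCM7 and PCNA led, in an order that the spread did not separate (TK1 124 ± 45, MCM7 102 ± 15 and PCNA 94.1 ± 15 FPKM, SD, n = 2). CCNE2 was the lowest member in all 4 groups.

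After MEOX2 siRNA in SNB19 cells members moved in both directions. Of the 52 members 22 were higher and 9 lower (edgeR quasi-likelihood test, adjusted p below 0.05), and 21 were not called. Of all 15525 genes tested, 27.4% were called higher and 28.5% lower. The median log2 fold change was 0.137 over the members and 0.00626 over all genes tested, and single members ranged from -0.707 to 0.858. The 22 higher members were 7 of 11 licensing genes, 2 of 6 helicase genes, 5 of 8 polymerase and primase genes, 6 of 10 clamp, clamp loader and RPA genes, 1 nucleotide enzyme and 1 chromatin gene. The 9 lower members were both lagging strand genes, 2 of 4 nucleotide enzymes, 2 of 6 G1/S genes, 1 helicase gene, 1 RPA subunit and 1 chromatin gene. On the scale of the fit, the siRNA libraries lay above all controls for 26 members (30.4% of all genes tested) and below all controls for 11 (31%). On library totals, limma on log2(FPKM + 1) called 31 members higher and 7 lower (81.6% of the calls higher, against 71% in the main test), and 31.8% of all genes higher and 22.5% lower. The changes were small, and 0 members passed an absolute log2 fold change of 1.

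**Figure D1:**
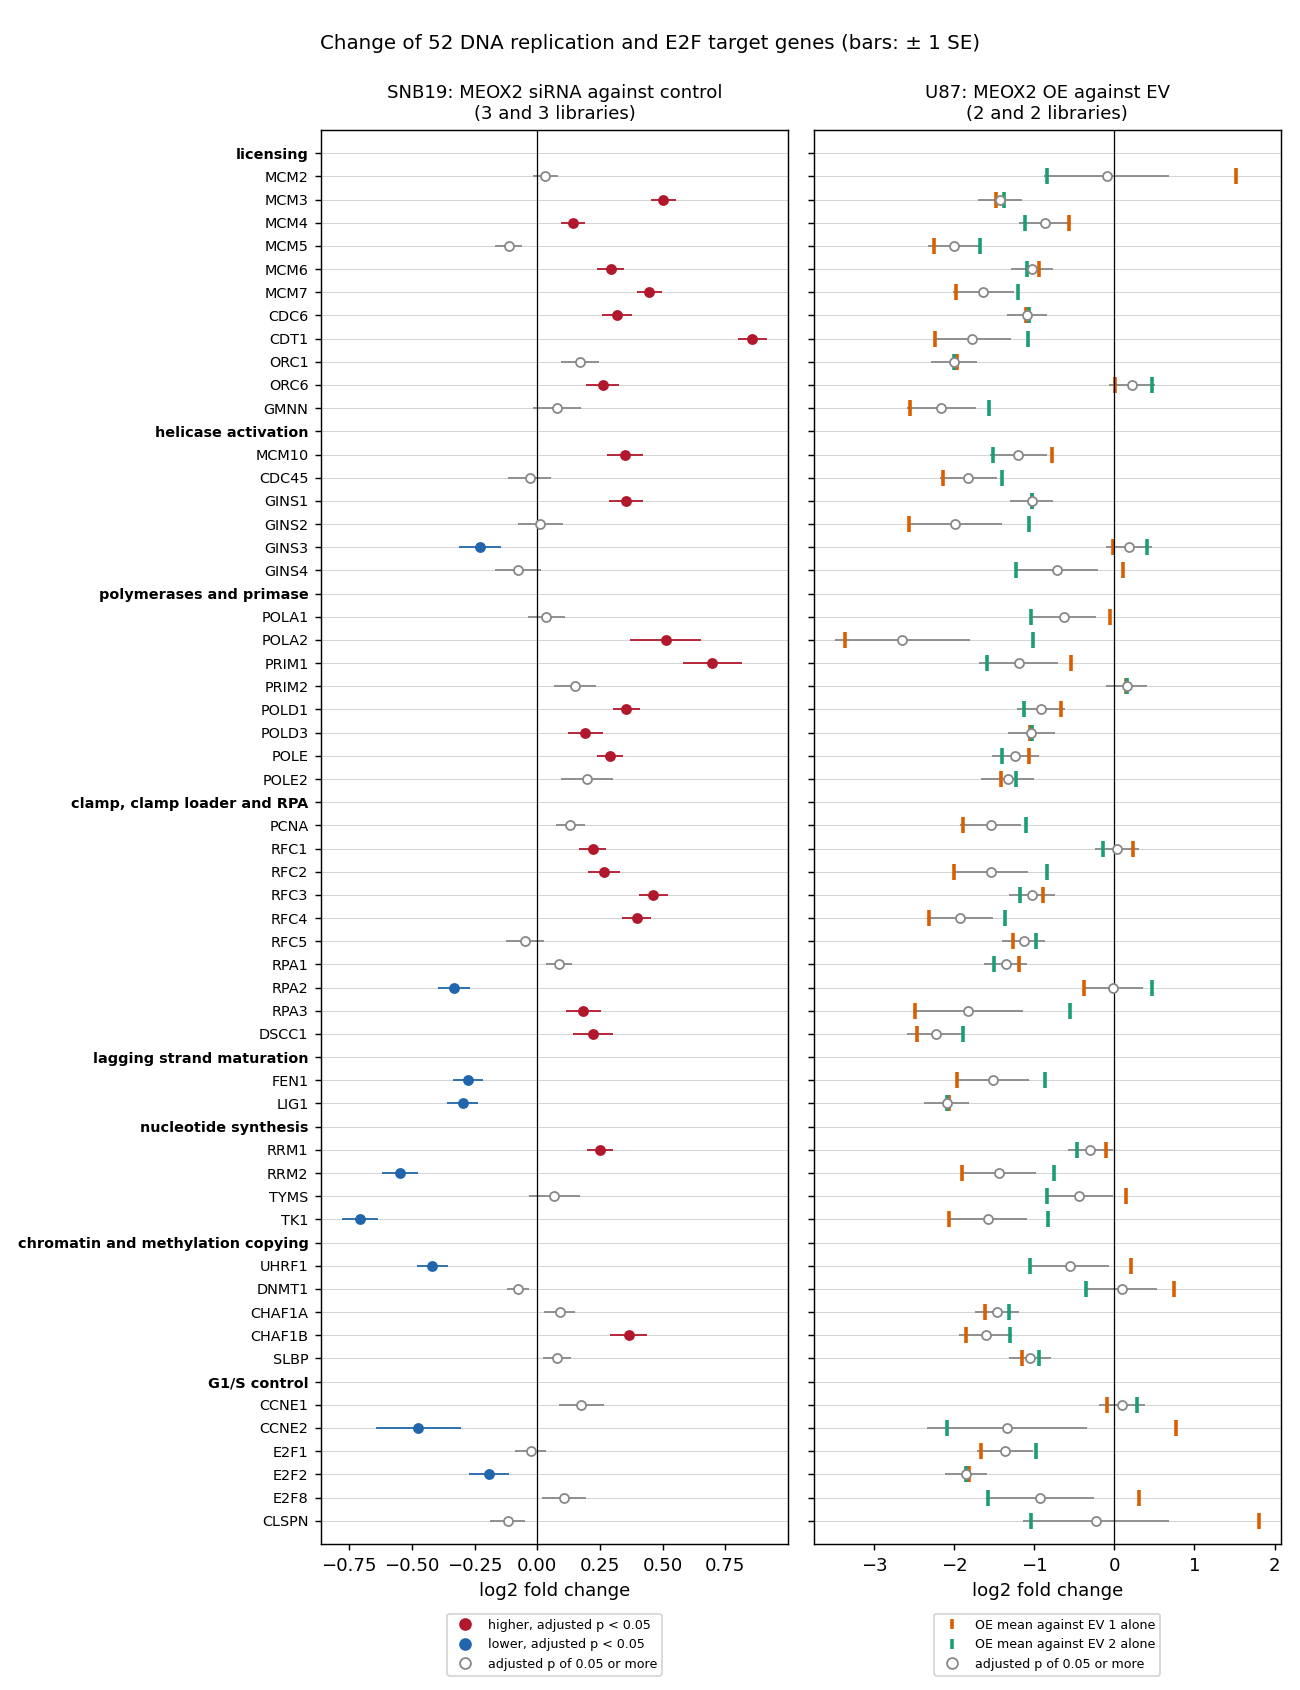
Log2 fold change (horizontal axis) of each of the 52 genes by role, with SE bars, after MEOX2 siRNA in SNB19 (left, 3 against 3 libraries) and with MEOX2 OE in U87 (right, 2 against 2 libraries). Filled red and blue points are the 22 higher and 9 lower members in SNB19, and vertical ticks on the right give the OE mean against EV 1 and EV 2 alone. In U87, 46 of 52 points lie below 0.

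Of the 11 licensing genes 7 were higher and 0 lower, with a median log2 fold change of 0.261. CDT1, which loads MCM rings with CDC6 and is destroyed once S phase begins, had 20.4, 20.2 and 19.4 FPKM in the controls and 38.7, 38.8 and 36.9 FPKM after siRNA. These groups lay far apart, and CDT1 had the largest change of the set, 1.81-fold higher (log2 0.86 ± 0.057 SE, adjusted p = 8.7e-11). MCM3 rose from 52.9, 51.5 and 51.8 to 81.1, 74.5 and 77.6 FPKM (log2 0.50 ± 0.051, adjusted p = 4.6e-08). MCM7 rose from 87.6, 91.3 and 83.8 to 129, 125 and 123 FPKM (log2 0.45 ± 0.049, adjusted p = 1.66e-07). Neither gene overlapped between groups. CDC6 (log2 0.32), MCM6 (0.29), ORC6 (0.26) and MCM4 (0.14) were also higher, so that 4 of the 6 subunits of the MCM2-7 ring rose. MCM2 (log2 0.03, adjusted p = 0.606) and MCM5 (-0.11, adjusted p = 0.0694) were not called, nor were ORC1 (0.17) and the CDT1 inhibitor GMNN (0.08).

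Among the helicase activators, GINS1 had 12.9, 12.3 and 14.4 FPKM in the controls and 18.7, 17.0 and 17.6 FPKM after siRNA, without overlap (log2 0.35 ± 0.069, adjusted p = 0.000201). MCM10, which helps to start the helicase, changed by the same amount (log2 0.35 ± 0.072, adjusted p = 0.000316). The 4 GINS subunits form 1 complex but did not move together: GINS3 was lower (log2 -0.23, adjusted p = 0.0263), while GINS2 (0.01) and GINS4 (-0.08) were not called. CDC45 was not called either (log2 -0.03, adjusted p = 0.779).

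All 8 polymerase and primase genes had a log2 fold change above 0, and 5 passed the test. PRIM1, the catalytic subunit of primase, had 5.03, 5.00 and 5.02 FPKM in the controls and 7.11, 8.54 and 10.2 FPKM after siRNA (log2 0.70 ± 0.12, adjusted p = 3.7e-05). The controls were nearly equal and the siRNA libraries spread widely above them. POLA2, the accessory subunit of polymerase alpha, rose from 1.43, 1.44 and 1.71 to 2.80, 2.02 and 2.04 FPKM (log2 0.51 ± 0.14, adjusted p = 0.00428), and 35.1% of its exonic bases are shared with another gene on the same strand, AP000944.2. POLD1, the catalytic subunit of polymerase delta, rose from 23.9, 26.4 and 24.8 to 33.0, 33.5 and 34.6 FPKM (log2 0.36 ± 0.054, adjusted p = 1.12e-05). POLD1 did not overlap between groups. POLE (log2 0.29), the leading strand polymerase, and POLD3 (0.19) were higher, while POLE2 (0.20, adjusted p = 0.108), PRIM2 (0.15) and POLA1 (0.04) were not called.

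In the clamp and clamp loader group, RFC3 had 22.9, 21.6 and 21.2 FPKM in the controls and 31.5, 31.3 and 32.8 FPKM after siRNA (log2 0.46 ± 0.060, adjusted p = 1.32e-06). The groups were well separated. RFC4 (log2 0.40), RFC2 (0.27), RFC1 (0.22) and DSCC1 (0.22), a subunit of the alternative loader that acts in sister chromatid cohesion, were also higher, whereas RFC5 was not called (-0.05, adjusted p = 0.606). PCNA itself had 149, 150.2 and 149 FPKM in the controls and 189, 164 and 164 FPKM after siRNA, and its log2 fold change of 0.13 ± 0.058 missed the threshold (adjusted p = 0.0603). The 3 RPA subunits went different ways: RPA2 was lower (log2 -0.33 ± 0.065, adjusted p = 0.000189), RPA3 was higher (0.18, adjusted p = 0.0332) and RPA1 was not called (0.09).

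Both lagging strand genes were lower. LIG1, the ligase that seals Okazaki fragments, had 10.2, 10.5 and 10.0 FPKM in the controls and 9.02, 8.70 and 8.55 FPKM after siRNA, without overlap (log2 -0.30 ± 0.062, adjusted p = 0.000392). FEN1, the nuclease that trims their flaps, fell by 0.28 on the log2 scale (adjusted p = 0.000518). Among the enzymes of nucleotide supply, thymidine kinase TK1 had 77.2, 84.5 and 76.4 FPKM in the controls and 57.5, 47.7 and 48.2 FPKM after siRNA. It was 1.63-fold lower, the largest decrease of the set (log2 -0.71 ± 0.070, adjusted p = 3.8e-08). RRM2, the S phase subunit of ribonucleotide reductase, fell from 9.36, 9.59 and 9.02 to 7.04, 6.29 and 6.80 FPKM (log2 -0.55 ± 0.072, adjusted p = 1.83e-06), and 20.2% of its exonic bases are shared with AC007240.1 on the same strand. Its partner subunit RRM1 was higher (log2 0.25 ± 0.052, adjusted p = 0.000366), so that the subunits of 1 enzyme moved apart. Thymidylate synthase TYMS was not called (0.07).

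UHRF1, which guides DNMT1 to newly copied methylated DNA, had 33.2, 35.8 and 32.7 FPKM in the controls and 28.3, 27.5 and 24.3 FPKM after siRNA (log2 -0.42 ± 0.062, adjusted p = 8.55e-06). All 3 siRNA libraries lay below all controls. DNMT1 itself was not called (log2 -0.08 ± 0.044, adjusted p = 0.149). CHAF1B, a subunit of the histone chaperone CAF-1, was higher (log2 0.36, adjusted p = 0.000277), and CHAF1A (0.09) and the histone mRNA binding protein SLBP (0.08) were not called.

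The G1/S regulators held no higher member. CCNE2, a cyclin E, had 1.18, 1.24 and 1.50 FPKM in the controls and 0.912, 1.05 and 1.02 FPKM after siRNA (log2 -0.47 ± 0.17, adjusted p = 0.0219). The groups did not overlap, but the level was low, the call was lost with DESeq2 (adjusted p = 0.0575), without control 3 (0.108) and without siRNA 1 (0.0547), and 37% of the exonic bases of CCNE2 overlap INTS8 on the opposite strand, whose reads cannot be told apart without strand. E2F2 was lower by a small amount (log2 -0.19, adjusted p = 0.0418), and E2F1 (-0.03, adjusted p = 0.739), E2F8 (0.11), CCNE1 (0.18) and the checkpoint adaptor CLSPN (-0.12) were not called.

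Outside the set, other replication genes moved much as the members did, with 18 of 40 higher and 5 lower (median log2 0.0619), led by the PCNA unloader ATAD5 (0.83) and topoisomerase TOP1 (0.46). Of 39 other E2F targets and pocket protein factors tested, 19 were higher and 5 lower (median 0.153), with DTL (0.71), the adaptor that marks CDT1 for destruction, and TMPO (-0.48) having the smallest p-values. G2/M genes went the other way: 16 of 25 were lower and 4 higher (median -0.187), among them cyclin B1, CCNB1 (log2 -0.60), and the mitotic kinesin KIF20A (-0.52). All 4 CDK inhibitors tested were lower, and CDKN1A, which encodes the brake on cyclin E and A kinases p21, fell from 25.9, 25.8 and 25.3 to 10.5, 10.3 and 10.0 FPKM (log2 -1.40 ± 0.065, adjusted p = 3.37e-13). In the same contrast 9 of 10 glial and glioma markers were lower, as were 5 of 6 markers of other cell types, with the endothelial PECAM1 at -2.62, and 5 of 6 housekeeping genes, with ACTB at -0.99. Their part in the members' changes was not tested.

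**Figure D2:**
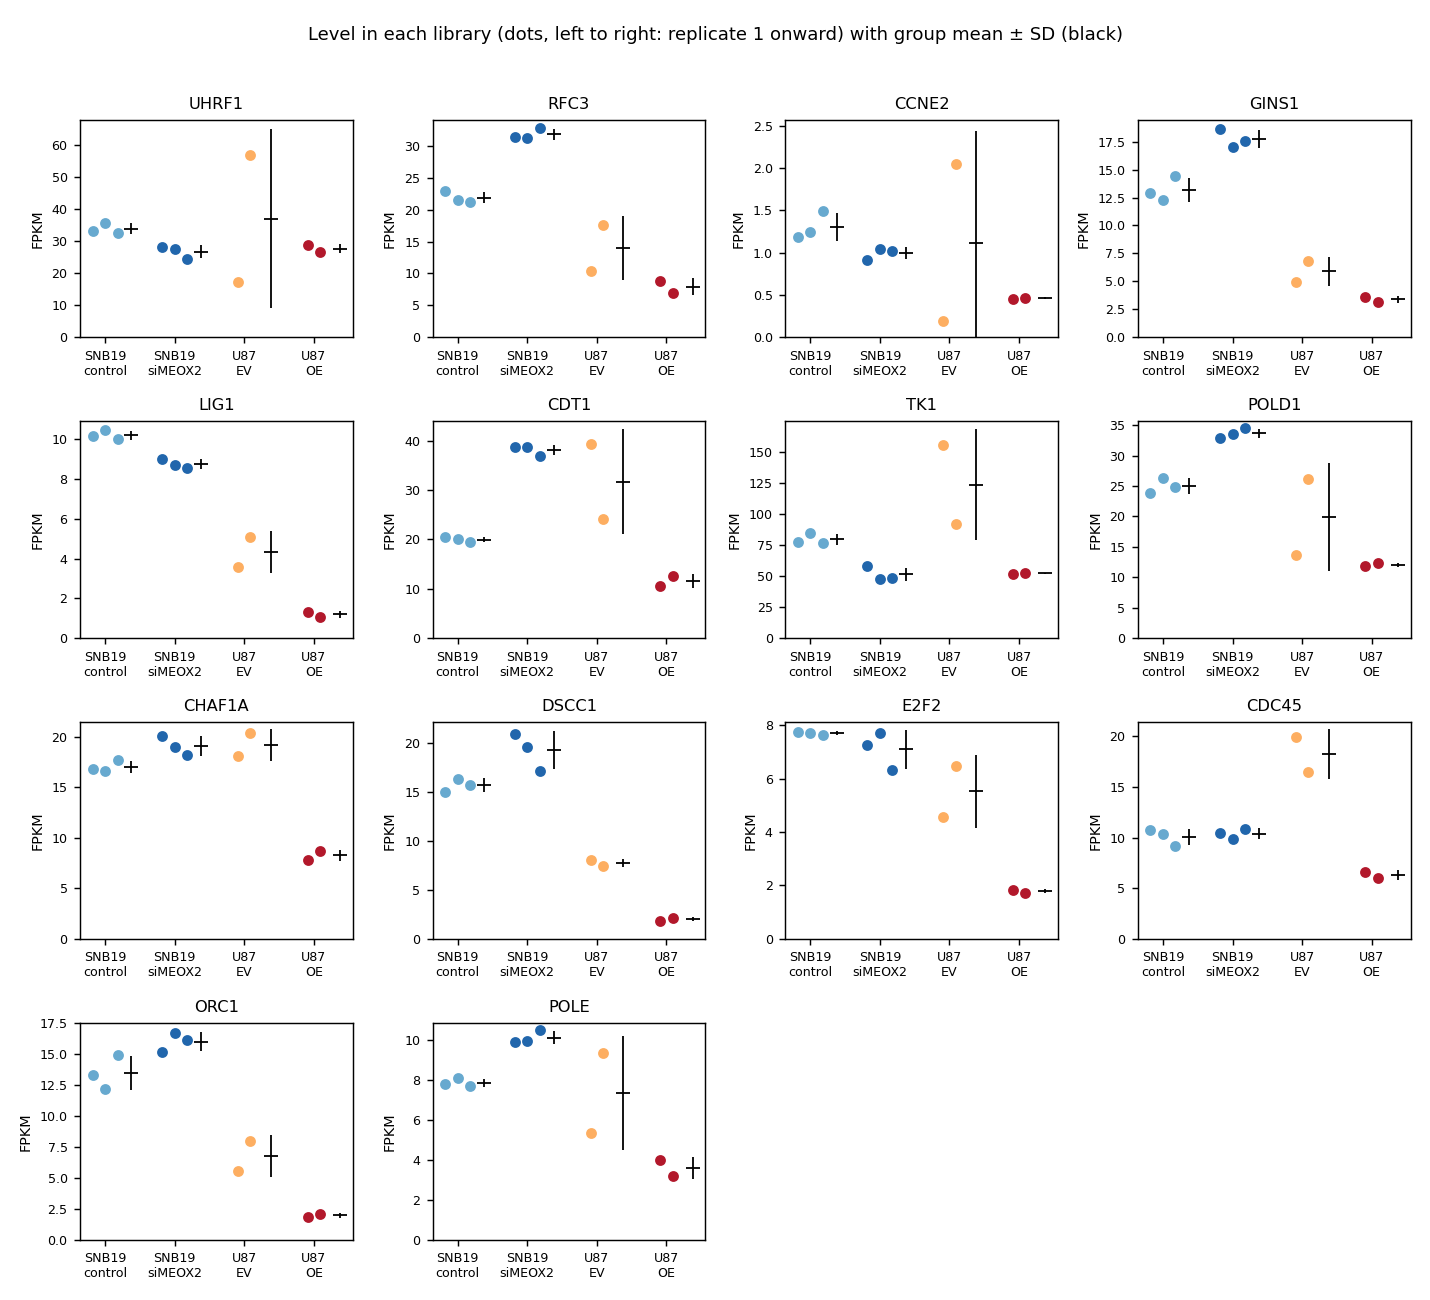
FPKM (vertical axis, from 0) of the members with the smallest p-value of their role in either line, in each library (dots) with the group mean and SD (black). CDT1 lies at 36.9 to 38.8 FPKM after siRNA against 19.4 to 20.4 in controls, and LIG1 at 1.07 and 1.31 FPKM in OE against 3.59 and 5.08 in EV.

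In U87 cells the members were at lower levels with MEOX2 OE, but the EV libraries differed so much that the test on the 4 libraries called 0 of 52 members and 0% of the 14180 genes tested, in either direction (edgeR, smallest adjusted p of a member 0.136). At an unadjusted p below 0.05, 35 members were lower and 0 higher, against 1511 lower and 1132 higher of all genes tested. DESeq2 on the same libraries called 21 members lower and 0 higher, against 4.68% lower and 2.31% higher of all genes. The median log2 fold change over the members was -1.22, against -0.0567 over all genes tested, and 46 of 52 members were below 0. On the scale of the fit, the OE libraries lay below both EV libraries for 38 members (28.6% of all genes tested), above both for 1 (29.6%), and overlapped for 13. In bulk RNA, a smaller share of cells in S phase and less mRNA per cell cannot be told apart. In viability and EdU assays, the paper reported more proliferation of U87 cells with MEOX2 OE. It reported less proliferation of SNB19 cells after MEOX2 siRNA. By flow cytometry, the paper also reported arrest at G2/M after MEOX2 knockdown, in SNB19 among other cells. With MEOX2 OE it reported a smaller share of cells at G2/M, in U87 among other cells. How the mRNA levels relate to these assays was not tested.

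This shift was present against each EV library alone. The median over the members was -1.13 against EV 1 and -1.07 against EV 2, while the median over all genes was 0.00384 and 5.74e-05, and the OE mean was lower than each EV library by more than 0.5 on the log2 scale for 36 members (14.4% of all genes). Gene by gene the EV libraries disagreed, with a median absolute difference of 0.635 over the members against 0.0879 between the OE libraries. A fit of all 10 libraries, in which SNB19 lends its spread to U87, called 36 members lower and 0 higher, against 14.9% lower and 11.3% higher of its 17312 genes. The same fit without EV 1 called 46 lower and 4 higher, against 18.4% lower and 20.4% higher of its genes, under the assumption that the single EV library varies like the other groups. On library totals, limma on log2(FPKM + 1) put the median of all genes at 0.126 and that of the members at -0.775, so that the members stayed 0.901 below all genes.

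For each member in U87, the log2 fold change and SE below are those of the 4-library fit. In that fit every member had an adjusted p of 0.136 or higher (edgeR). Values without EV 1 come from the 10-library fit without that library. Of the licensing genes, 9 of 11 were lower in the 10-library fit. ORC1, the ATPase of the origin recognition complex, had 5.59 and 7.95 FPKM in EV and 1.84 and 2.10 FPKM in OE, a 4-library log2 fold change of -2.001 ± 0.28 (10-library adjusted p = 8.27e-05), and -1.97 without EV 1. CDT1 had 39.3 and 24.2 FPKM in EV and 10.6 and 12.6 in OE (log2 -1.77 ± 0.48, and -1.02 without EV 1). MCM3 had 62.1 and 80.2 FPKM in EV and 30.3 and 31.9 in OE (log2 -1.43 ± 0.27, and -1.33 without EV 1). All 3 had separate groups, and CDT1 shows how far the size depends on EV 1. MCM7 (log2 -1.64), MCM5 (-1.996), MCM6 (-1.02), CDC6 (-1.09) and GMNN (-2.16) were likewise lower in that fit. MCM2 differed more between the EV libraries (3.42 and 24.3 FPKM) than between the groups (OE 14.0 and 13.4 FPKM, log2 -0.10 ± 0.78), and 22.7% of its exonic bases overlap AC023593.1 on the opposite strand. The OE mean of MCM2 was at log2 1.51 against EV 1 alone and -0.84 against EV 2 alone. ORC6 was the licensing gene above 0, with 10.5 and 10.6 FPKM in EV and 14.8 and 14.7 in OE (log2 0.22 ± 0.29, adjusted p = 0.673, and 0.52 without EV 1, adjusted p = 0.000218).

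CDC45 had 19.96 and 16.5 FPKM in EV and 6.62 and 5.98 FPKM in OE, without overlap (log2 -1.82 ± 0.36, 10-library adjusted p = 0.000792, and -1.36 without EV 1). GINS1 (log2 -1.03), GINS2 (-1.99) and MCM10 (-1.20) were also lower in the 10-library fit. GINS4 (-0.71) and GINS3 (0.19) were not. Of the polymerase genes 6 of 8 were lower in that fit. POLE had 5.34 and 9.36 FPKM in EV and 3.99 and 3.20 in OE (log2 -1.23 ± 0.29, 10-library adjusted p = 0.00101, and -1.35 without EV 1). POLA2 had the largest fitted change of the set, log2 -2.64 ± 0.84, but its EV libraries stood at 8.27 and 2.24 FPKM against 1.03 and 1.17 in OE, and without EV 1 the value was -0.98. POLA1 (-0.63) and PRIM2 (0.15) were not called.

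In the clamp group DSCC1 had the largest fitted change of the set after POLA2. It had 8.06 and 7.46 FPKM in EV and 1.84 and 2.15 in OE (log2 -2.23 ± 0.35, 10-library adjusted p = 0.000245, and -1.86 without EV 1). RPA1, RFC2, RFC3, RFC4, RFC5, PCNA and RPA3 were also lower in the 10-library fit. PCNA had 104 and 83.8 FPKM in EV and 35.6 and 43.4 FPKM in OE (log2 -1.54 ± 0.38, and -1.04 without EV 1). RFC1, the large loader subunit, was at 8.92 and 16.01 FPKM in EV and 14.8 and 14.5 in OE, so that its groups overlapped (log2 0.04 ± 0.28). On the scale of the fit RPA2 overlapped as well (log2 -0.01 ± 0.37) and was higher without EV 1 (0.51, adjusted p = 0.000237).

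LIG1 was the member with the smallest p in U87. It had 3.59 and 5.08 FPKM in EV and 1.31 and 1.07 FPKM in OE, 4.26-fold lower (log2 -2.09 ± 0.28, 10-library adjusted p = 4.83e-05), and its value without EV 1 was -2.07. FEN1 was lower in the same fit (log2 -1.51, and -0.81 without EV 1). TK1 had 155 and 91.7 FPKM in EV and 51.5 and 52.3 in OE (log2 -1.57 ± 0.49, 10-library adjusted p = 0.00862, and -0.78 without EV 1). The OE libraries of TK1 nearly coincided, below both EV libraries. RRM2 was lower in that fit (log2 -1.44), while RRM1 (-0.30) and TYMS (-0.44) were not called, and 39.1% of the exonic bases of TYMS overlap ENOSF1 on the opposite strand.

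CHAF1A, the large subunit of CAF-1, had 18.04 and 20.3 FPKM in EV and 7.83 and 8.66 in OE (log2 -1.47 ± 0.27, 10-library adjusted p = 0.000278, and -1.26 without EV 1). CHAF1B (log2 -1.61) and SLBP (-1.05) were lower too. UHRF1 (17.2 and 56.9 FPKM in EV, 28.7 and 26.7 in OE) and DNMT1 (12.0 and 35.6 in EV, 28.6 and 27.4 in OE) had OE values between the EV libraries and were not called. Their OE means were at log2 0.20 and 0.74 against EV 1 alone, and at -1.05 and -0.36 against EV 2 alone. Among the G1/S genes, E2F2 had 4.56 and 6.48 FPKM in EV and 1.84 and 1.73 in OE (log2 -1.85 ± 0.26, 10-library adjusted p = 9.37e-05, and -1.82 without EV 1). E2F1 was lower in the same fit (log2 -1.36, adjusted p = 0.002). CCNE2 (0.183 and 2.06 FPKM in EV, 0.454 and 0.466 in OE), CLSPN (0.789 and 8.03 in EV, 3.85 and 4.01 in OE) and E2F8 (1.48 and 7.61 in EV, 2.85 and 2.29 in OE) again lay between the EV libraries. In this order, their OE means were at log2 0.77, 1.81 and 0.30 against EV 1 alone, and at -2.09, -1.04 and -1.57 against EV 2 alone. CCNE1, the more abundant cyclin E, was at 9.30 and 9.90 FPKM in EV and 11.2 and 13.2 in OE (log2 0.09 ± 0.29, and 0.35 without EV 1).

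Other lists had no call in the 4-library fit either. In the 10-library fit 13 of 40 other replication genes were lower and 0 higher, with TONSL (-1.86) and CHTF18 (-1.78) having the smallest p-values. Of 39 other E2F targets 18 were lower and 2 higher, led by MELK (-1.11) and EXO1 (-1.19), and of 25 G2/M genes 20 were lower and 0 higher, led by CCNB1 (-2.03) and CENPA (-1.90). The medians were -0.463, -0.549 and -1.19 on the log2 scale, against -1.21 for the members. Of the 4 CDK inhibitors in this fit 1 was higher and 1 lower. CDKN1A went up in U87, from 85.2 and 106 FPKM in EV to 144 and 155 in OE (10-library log2 0.42 ± 0.12, adjusted p = 0.0363). CDKN2D, which encodes the CDK4 and CDK6 inhibitor p19, went down, from 23.02 and 15.71 FPKM to 6.529 and 7.363 (log2 -1.77 ± 0.29, adjusted p = 0.003). Of the housekeeping genes 2 of 6 were lower in this fit, with ACTB at -0.80, and of the glial and glioma markers 3 of 10 were lower and 1 higher. Of 7 markers of other cell types 3 were lower and 1 higher (median -1.3), with PDGFRB at -1.79 and MBP at 2.42. Their part in the members' levels was not tested.

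The treatments were set side by side by testing the difference between the siRNA change and the OE change in the 10-library fit. There SNB19 lends its spread to U87, so the SE and calls do not carry the full spread of the EV libraries. For MCM3 the SE of the difference was 0.16, against 0.27 for the OE change alone in the 4-library fit. The difference was called above 0 for 32 of 52 members and below 0 for none (edgeR, adjusted p below 0.05). Of the 17312 genes, 8.36% were called above 0 and 7.33% below. At an unadjusted p below 0.05, and with DESeq2, 0 members were called below 0 on all 10 libraries. With either EV library left out, some members were called below 0. The value itself was above 0 for 48 members and below 0 for 4. The median difference was 1.33 over the members and 0.0527 over all genes. Without EV 1, the median difference was 1.26 over the members and -0.0666 over all genes, and single members ranged from -0.856 to 2.26. The largest differences were those of POLA2 (3.12 ± 0.76, and 1.48 without EV 1), CDT1 (2.60 ± 0.39, and 1.86), DSCC1 (2.42 ± 0.27, and 2.07), RFC4 (2.29), GMNN (2.20), ORC1 (2.15), MCM7 (2.05), GINS2 (1.97), CHAF1B (1.94) and MCM3 (1.91 ± 0.16, and 1.82).

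In what follows, siRNA calls come from the 6-library SNB19 fit and OE calls from the 10-library fit. For each treatment this was the fit, of its own line or of all libraries, that called more members. In the 10-library fit siRNA called 3 members higher and 0 lower, so at most 3 could be called in opposite directions there. In the fit of the U87 libraries alone OE called 0 members. The groups below therefore depend on mixing fits, and the shares of all genes with the same calls are not given. Of the members with a difference called above 0, 18 were higher after siRNA and lower with OE. These were MCM3, MCM4, MCM6, MCM7, CDC6, CDT1, MCM10, GINS1, POLA2, PRIM1, POLD1, POLD3, POLE, RFC2, RFC3, RFC4, DSCC1 and CHAF1B, most of them parts of the ring, the polymerases and the clamp loader. Another 12 were not called after siRNA and were lower with OE, among them ORC1, CDC45, PCNA, RPA1, CHAF1A and E2F1. LIG1 and E2F2 were lower in both lines, and the difference was above 0 because the U87 decrease was larger. TK1, RRM2 and FEN1 were also lower in both, and for them no difference was called (TK1 0.84 ± 0.41, adjusted p = 0.188, RRM2 0.86 ± 0.38, adjusted p = 0.148, FEN1 1.21 ± 0.37, adjusted p = 0.0554). Without EV 1, TK1 stood at 0.07 ± 0.13. RPA3 was higher after siRNA and lower with OE with no called difference (1.98 ± 0.59, adjusted p = 0.0523). The remaining members had no call with OE, and 9 of them (MCM2, GINS4, POLA1, PRIM2, TYMS, DNMT1, CCNE1, E2F8 and CLSPN) were called in none of the 3 tests.

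**Figure D3:**
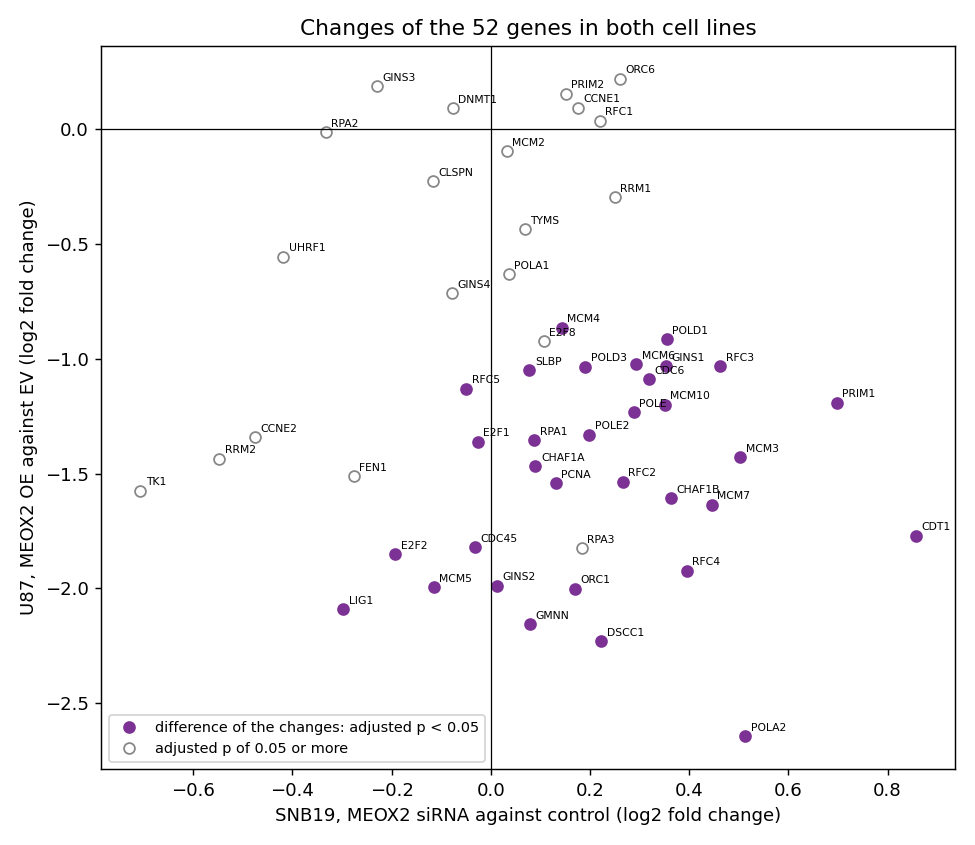
Log2 fold change after MEOX2 siRNA in SNB19 (horizontal) against that with MEOX2 OE in U87 (vertical, 4-library fit) for each of the 52 genes. Filled points are the 32 members whose difference was called above 0. Of the 52 points, 32 lie to the right of 0 and below 0 at once, with CDT1 at 0.86 and -1.77. Another 14 were below 0 in both lines, 4 above 0 in both, and 2 below 0 after siRNA and above 0 with OE. Pearson's r across the 52 members was -0.124, so the sizes of the changes were only weakly related gene by gene.

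The control libraries of the lines were also compared, in the 10-library fit. Of the members 6 were higher and 19 lower in SNB19 controls than in U87 EV, against 28.1% higher and 28.8% lower of all genes. The median over the members was -0.248, against 0.0262 over all genes, a difference of -0.274. The sign of the members' median, but not that of this difference, changed with the scaling. On log2(FPKM + 1), where the median of all genes was 0.207, the members' median was 0.148, a difference of -0.0593, and 18 members were called higher and 12 lower, against 37.1% and 17.7% of all genes. Without EV 1, 12 members were higher and 23 lower, against 32.5% and 30.9% of all genes, with a median of -0.16.

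The members that stood lower in SNB19 controls included regulators and early replication factors. E2F1 had 36.6, 35.6 and 32.7 FPKM in SNB19 controls and 81.5 and 70.05 FPKM in EV (log2 -1.52 ± 0.18, adjusted p = 0.000105, and -1.15 without EV 1). RRM2 had 9.36, 9.59 and 9.02 FPKM against 25.02 and 15.7 (log2 -1.57 ± 0.26, adjusted p = 0.000855, and -0.90 without EV 1). CDC45 had 10.7, 10.3 and 9.17 FPKM against 19.96 and 16.5 (log2 -1.27 ± 0.20, adjusted p = 0.000576, and -0.86 without EV 1). None of these overlapped between the lines. MCM6 had 28.6, 29.6 and 27.1 FPKM against 33.2 and 50.9 (log2 -0.91 ± 0.11, adjusted p = 0.00013, and -0.99 without EV 1). POLA2 (-2.29, and -0.70 without EV 1), GINS2 (-1.41, and -0.49), CDT1 (-1.11, and -0.43) and TK1 (-1.09, and -0.36) shrank without EV 1 but were still called. With the 5 control libraries alone, CDT1 (adjusted p = 0.0516) and TK1 (0.0632) missed the threshold. RPA3 (-1.09, adjusted p = 0.0442) changed sign without EV 1 (0.15, adjusted p = 0.241) and lost the call without any 1 of the SNB19 controls (adjusted p from 0.0837 to 0.111). RPA1 was the named member that stood higher in SNB19, with 37.8, 40.4 and 38.2 FPKM against 11.04 and 18.9 (log2 1.04 ± 0.13, adjusted p = 0.000172, and 0.88 without EV 1), and LIG1 (0.89), GINS1 (0.81), ORC1 (0.64), DSCC1 (0.62) and POLD3 (0.60) were the other 5.

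**Figure D4:**
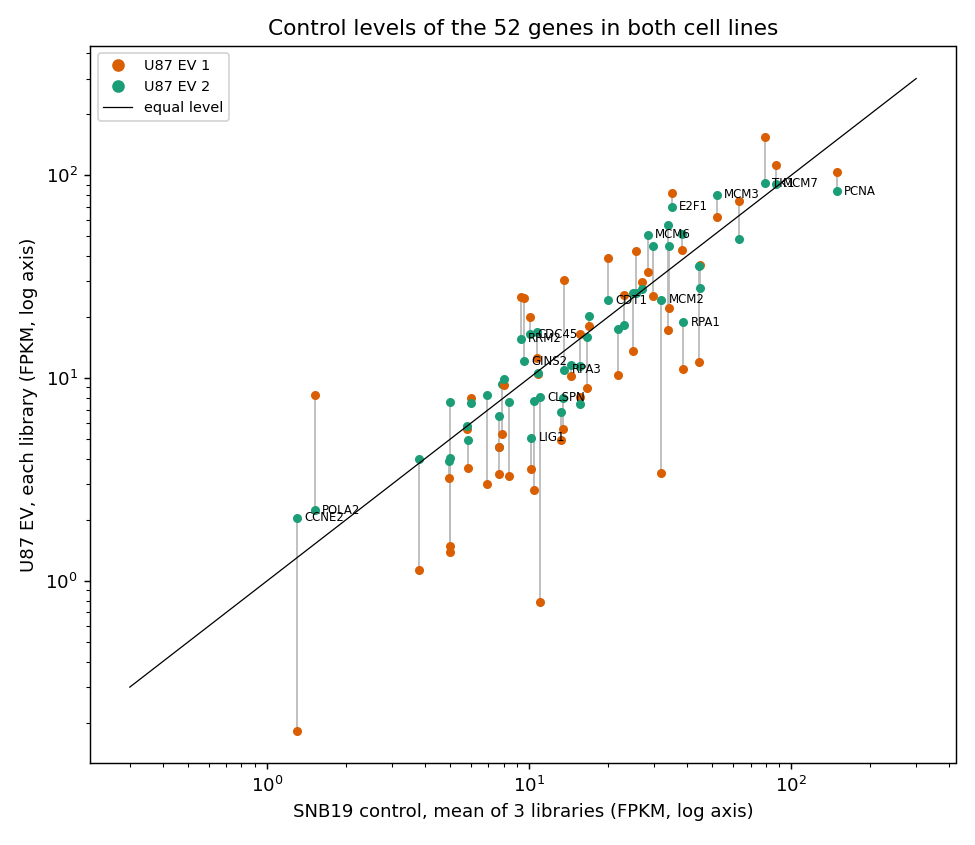
Level of each of the 52 genes in U87 EV 1 and EV 2 (vertical, FPKM, log axis, joined by a grey line) against the SNB19 control mean of 3 libraries (horizontal, FPKM, log axis), with selected genes named. E2F1 lies above the line of equal level in both EV libraries (81.5 and 70.05 FPKM), RPA1 lies below it in both (11.04 and 18.9 FPKM), and the EV libraries of CCNE2 lie on either side of it (0.183 and 2.06 FPKM).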

How the data were processed

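Poly-A RNA was sequenced as 150-base pairs, with a library kit that was not stated to keep strand. The submitters' processing notes name HISAT2, HTSeq 0.11.2 and DESeq2 1.26.0, and GRCh38. The authors deposited 1 table with whole-number read counts and FPKM values for 10 libraries. The deposited FPKM equalled the count divided by the library's summed count and 1 gene length. All 20 sample columns were mapped to GEO titles, and 0 were unused.

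Counts were fitted in R 4.3.3 with edgeR 4.0.16 (TMM, filterByExpr with a minimum count of 10, glmQLFit and glmQLFTest) across all genes, with Benjamini-Hochberg adjustment over all genes tested and a threshold of 0.05. SNB19 was fitted on 6 and U87 on 4 libraries, and the baseline and the difference of changes on all 10. Each SE is the absolute log2 fold change over the square root of F. DESeq2 1.42.0 and limma 3.58.1, on log2(FPKM + 1), were alternatives. Scripts were tested on simulated counts with the same spread in every library, so the test does not cover libraries that differ as the EV libraries do. Group and library levels are FPKM and say nothing of total RNA. Library values are given for the 10 called members with the largest change after siRNA, and for some of those in the comparison of controls and in the difference. They are also given for the member with the smallest p of each role in each line. Genes added after their values were seen have them too (MCM2, CDKN1A, PCNA, RFC1 and the members whose OE values lay between the EV libraries). The members and lists were chosen with earlier results of these data known. Replicate numbers did not pair the SNB19 libraries (correlations of same-numbered deviations of 0.00301, -0.0115 and 0.058). Promoter sequences came from RefSeq GRCh38.p14, by the first listed start of each gene, and 43 of 52 members matched. Shared exonic bases were computed from the reference annotation.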

Additional observations from a re-analysis of the deposited data

How the results depend on the processing

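With MEOX2 siRNA, the 22 higher and 9 lower members became 0 and 0 under the study's rule (absolute log2 fold change over 1, unadjusted p below 0.05) and 3 and 0 in the 10-library fit, which called 1210 and 1515 of all genes against 4261 and 4422; the cause was not tested. Leaving out 1 library gave 19 to 22 higher, 6 to 9 lower and a median of 0.105 to 0.153, and limma on log2(FPKM + 1) gave a median of 0.197. DESeq2 called 21 and 6. For the named genes 143 recomputed values kept direction and call and 26 lost the call, all under the study's rule or in the 10-library fit except those of CCNE2. The replicate block left 22 higher and 9 lower, and in U87 called 6 lower, or 15 with the crossed pairing, against 0 without it.

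With MEOX2 OE, the 0 lower members became 23 without the filter, 21 with DESeq2, 33 under the study's rule, 36 in the 10-library fit and 46 in that fit without U87 EV 1, which also called 4 higher instead of 0. Leaving out 1 library gave 0 to 46 lower, 0 to 4 higher (3 without EV 1, 4 without EV 2) and a median of -1.28 to -1.07, and limma gave a median of -0.775. Of all genes, 0 were called in the 4-library fit, 1951 higher and 2587 lower in the 10-library fit, 327 and 664 with DESeq2, and 3741 and 3376 in the fit without EV 1. The last fit, the crossed pairing and the alternatives of the difference were chosen after seeing the data.

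For SNB19 control against U87 EV, the 6 higher and 19 lower members became 10 higher without the filter, 18 and 12 with limma, 1 and 8 under the study's rule and 12 lower with the control libraries alone. Leaving out 1 library gave 5 to 20 higher, 15 to 25 lower and a median of -0.259 to -0.116. The median reversed to 0.148 with limma, where that of all genes was 0.207 (difference -0.0593), and RPA3 reversed to 0.15 without EV 1 (range over libraries left out -1.78 to 0.15). For the difference of changes, leaving out an EV library gave a median of 1.26 to 1.29 over the members. The disagreement of the EV libraries limits the U87 values of the genes at which they differ.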

Other observations

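E2F7, an atypical E2F that represses other E2F targets and belongs to the list of other E2F targets, was picked out here after its values were seen. It had 828, 612 and 756 counts in the SNB19 controls and 701, 763 and 822 after MEOX2 siRNA. In U87 it had 0 counts in both EV libraries and 4 and 5 in the OE libraries. Its close relative E2F8, a member of the set, was expressed in both lines, at 4.93 to 5.92 FPKM in SNB19 and 1.48 to 7.61 FPKM in U87.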
